A study of Bos taurus with 10 samples.

Results

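The 5 control bovine blastocysts of this RNA-seq series, out of 10 embryos in all, were described on their own. They were cattle embryos made by in vitro fertilization from oocytes of abattoir ovaries and frozen-thawed semen, and each had been injected at the zygote stage with mRNA of BE3 and no guide RNA. BE3 is a cytosine base editor, a Cas9 nickase joined to a cytidine deaminase, and without a guide it is directed to no gene. The other 5 embryos, injected with the same mRNA plus guides against *SOX2* (SOX2 KO), entered only where their own spread is given. The members were every column of the deposited table that belonged to the control group, called nc1 to nc5 here after replicates 1 to 5 of that group. Each column is 1 whole embryo without its zona pellucida, sequenced from cDNA amplified by the Smart-seq2 method. The labels give day 7.0 after fertilization, and the study's methods name the early blastocyst stage at a slightly later time. No oocyte donor, sire, culture drop or sex is given per embryo, so differences between embryos from these sources and technical error cannot be told apart.

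An early blastocyst has an outer epithelium, the trophectoderm, which will form the placenta, and an inner cell mass that sorts into epiblast, the source of the fetus, and hypoblast, which lines the yolk sac. In cattle the trophectoderm secretes interferon tau, the signal by which the conceptus announces itself to the mother. Transcription factors such as *POU5F1*, *NANOG* and *SOX2* mark the pluripotent cells, *GATA6* and *GATA4* the hypoblast, and *CDX2*, *GATA3* and *TFAP2C* the trophectoderm. By the study's staining, however, SOX2, OCT4 (the product of *POU5F1*) and NANOG proteins were still present in both trophectoderm and inner cell mass around this stage. They became restricted later, so reads of these genes here are not a measure of the epiblast alone.

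Values are normalized read counts, that is, reads divided by a size factor of each embryo. The deposited values of an embryo were whole multiples of 1 number, so reads could be recovered, and they ranged from 2223670 in nc2 to 5134855 in nc5 (median 4342477). Of the 20112 genes listed, 15919 in nc2 to 18092 in nc3 had at least 1 read. Once every embryo was thinned at random to the 2223670 reads of nc2, nc3 still had the most genes with a read, 17374, and nc4 the fewest, 15104. Across genes with a mean of at least 1, the correlation of log2 values between embryos ran from 0.912 for nc2 with nc3 to 0.948 for nc1 with nc5, so nc2 and nc3 were the embryos least like each other. No embryo's column repeated another's. Gene lengths were not used, so an order of genes below is an order of reads, and a long transcript can draw more reads than a short one at the same number of molecules.

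The most abundant transcripts were those of ribosomes, the epithelial cytoskeleton and cytosolic chaperones. *RN18S1*, the 18S ribosomal RNA gene, took 33.0% of the reads of nc1, 28.1% of nc2, 37.0% of nc3, 31.9% of nc4 and 26.4% of nc5. Its share was thus highest in nc3 and lowest in nc5, and all percentages that follow leave it out. The libraries were primed with oligo-dT, so this share of reads does not measure the amount of 18S ribosomal RNA. The 19 next genes held 8.54% ± 0.682 of the remaining reads (SD, n = 5), the 100 next genes 20.6% ± 1.79, and the 1000 next genes 54.8% ± 2.66. Of the 20112 genes, 335 (1.67%) had a mean of 1000 or more and 6964 (34.6%) a mean of 50 or more.

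Both cytoplasmic actins stood at the head of the messenger RNAs. *ACTB* had 28460, 28430, 23037, 39304 and 29282 normalized reads in nc1 to nc5, a mean of 29702 ± 5915. *ACTG1*, whose coding sequence is so close that reads of the pair can be hard to separate, had 15126 ± 3169. Together they made 1.98% ± 0.302 of the reads, highest in nc4 at 2.46% and lowest in nc3 at 1.66%.

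*KRT8* and *KRT18*, the keratin partners of simple epithelia, came in the third and the eighth place. *KRT8* had 15217, 16938, 15026, 22926 and 17375 in nc1 to nc5, and *KRT18* had 9087, 8992, 6996, 10868 and 9559. Both were highest in nc4 and lowest in nc3, as were the actins. *EZR*, ezrin, which ties actin to the apical membrane, had a mean of 7930 ± 1071, and *MYL6*, a myosin light chain, 6120 ± 906. *CLDN6*, a claudin of tight junctions, had 9949 in nc1 and 5948 to 6889 in the other embryos.

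*FN1*, fibronectin, drew 11160, 14623, 9831, 7708 and 11202 normalized reads, so it was highest in nc2 and lowest in nc4, unlike the keratins. *FTH1*, the ferritin heavy chain that stores iron, had a mean of 11283 ± 2593. The cytosolic chaperones were the most even of the 20 genes. *HSP90AA1* ran from 9786 to 11599 (mean 10618 ± 684), *HSP90AB1* from 6655 to 7823 (7295 ± 463) and *HSPA8*, the constitutive heat shock protein of the HSP70 family, from 7503 to 9229 (8706 ± 687). *PRDX1*, a peroxiredoxin that removes peroxide, was the least even of the 20 with 5086, 9448, 4756, 8906 and 9499. The list of 20 was completed by *RPS3* (8051 ± 1580), *RPL10* (7971 ± 1872), *SLC25A5*, the mitochondrial ADP/ATP carrier (7860 ± 1488), *RPS4X* (7301 ± 1999), the elongation factor *EEF1A1* (6779 ± 1817) and *TMSB10*, which binds actin monomers (6178 ± 679).

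**Figure D1:**
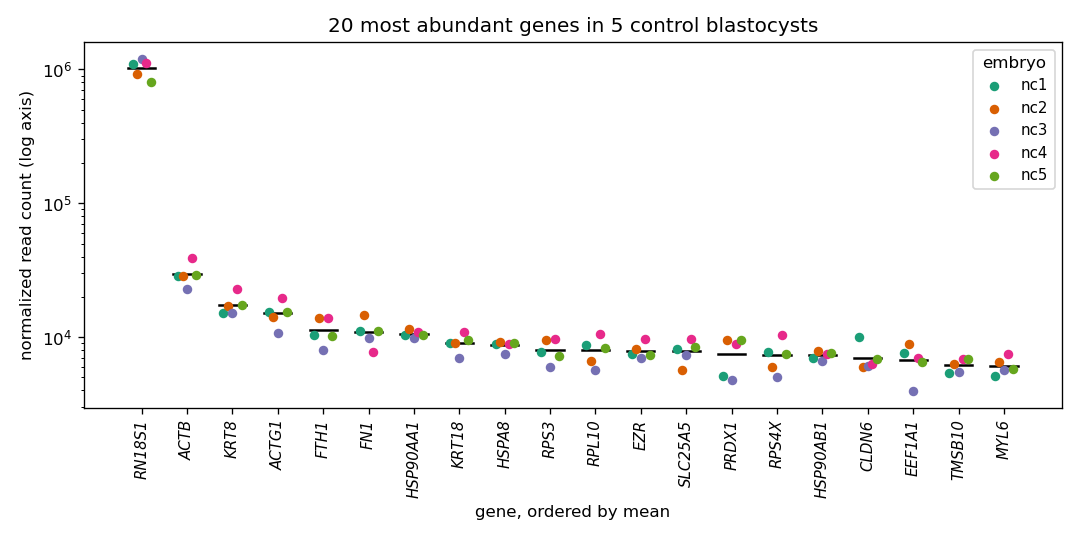
Normalized read counts on a log axis of the 20 genes with the highest mean, with 1 point for each of the 5 control embryos and a bar for their mean. *RN18S1* stands apart near 1027744, and 12 of the 20 genes were highest in nc4 while 14 were lowest in nc3.

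Of the 100 genes that followed *RN18S1*, 37 encoded cytoplasmic ribosomal proteins, out of 84 in the table. They included *RPS2* (6051 ± 1675), *RPLP0* (5408 ± 1427) and *RPLP1* (5295 ± 1086). A further 6 encoded nuclear subunits of the respiratory chain, such as *ATP5MC3* of the ATP synthase (4429 ± 1111) and *COX5B* of cytochrome oxidase (3646 ± 606). Among other genes of that range, *CS*, citrate synthase, had 5261 ± 722, *HSPB1*, a small heat shock protein, 5139 ± 1143, *GAPDH* 3884 ± 1004 and *SLC2A3*, a glucose transporter, 3104 ± 806. No epiblast marker was among the 100, against 2 of the hypoblast list, *FN1* and *LRP2*, and 2 of the trophectoderm list, *KRT8* and *KRT18*. *ZC3H10* also drew 5022 ± 1140 normalized reads, but whether these reads belong to that gene or to another that overlaps it was not tested. *CS* and *ZC3H10* were chosen after their values were seen.

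Genes of the epiblast, hypoblast and trophectoderm lists were read in every embryo, though reads of whole embryos do not show which cells made them. The defining markers of other cells that could cling to an embryo were low. Of the 21 epiblast markers with a row in the table, 17 had a mean of 50 or more, as did 11 of 19 hypoblast and 18 of 28 trophectoderm markers, beside 34.6% of all genes in the table. Of 14 cumulus and granulosa markers only *COL1A2* reached that level (57.9 ± 12.3). *NR5A1* had no read in any control embryo, which allows at most 3 reads in each, and *HAS2* had at most 2. The granulosa receptor *FSHR* had 22.9, 2.97, 36.8, 39.6 and 13.6, and *STAR* had 22.2 ± 7.34. None of 9 blood markers reached 50, with *PTPRC* at 1 read at most and the hemoglobin gene *HBA* at 3.11 to 20.1. Of 8 sperm genes only *ODF2*, which is also a centrosome gene of other cells, passed 50 (136 ± 23.1), and *PRM1* lay between 0 and 15.9. Of 18 oocyte genes only *RNF114* passed (75.6 ± 21.4). The summed level of the oocyte list was 181 in nc1, 360 in nc2, 224 in nc3, 315 in nc4 and 217 in nc5.

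*POU5F1*, which encodes OCT4, had 1481 normalized reads in nc1, 998 in nc2, 1197 in nc3, 1298 in nc4 and 1087 in nc5 (mean 1212 ± 188). *SOX2* had 56.5, 93.4, 83.5, 73.0 and 84.4 (mean 78.2 ± 14.1), from 143 reads or fewer per embryo. Both pluripotency factors were read in every embryo, with coefficients of variation (CV, the SD divided by the mean) of 0.155 and 0.181. *NANOG* was not even. It had 17.6 in nc1, 101 in nc2, 17.9 in nc3, 148 in nc4 and 64.9 in nc5, and its CV was 0.800 against a counting CV of 0.115, which is the CV that the number of reads alone would give. Embryos nc1 and nc3 thus had low *NANOG* beside *POU5F1* levels that were at or above those of nc2. *KLF17*, a Kruppel-like factor of the pluripotent cells, was also uneven, with 123 in nc4 and 23.7 to 50.2 in the others.

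The other epiblast genes with a mean of 50 or more had lower CVs. *OTX2* was the most even with 318 ± 28.8 (CV 0.0904), followed by *DPPA3* with 717 ± 94.6 (0.132), *TFCP2L1* with 658 ± 96.5 (0.147) and *KLF5* with 889 ± 132 (0.149). *DNMT3B*, a de novo DNA methyltransferase, ran from 265 in nc5 to 713 in nc3. *UTF1* had 249 in nc3 and 89.0 to 117 elsewhere. *TDGF1*, *LIN28A*, *LIN28B* and *GDF3* had means under 50. *NODAL* and *FGF4* were not analysed here.

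Of the hypoblast genes, *GATA6* had 1003, 811, 1207, 818 and 952 (mean 958 ± 162), and its partner *GATA4* only 6.11 to 16.3. *SOX7* and *FOXA2* had at most 2 reads in any embryo, and *SOX17* was not analysed here. Within the list, *GATA6* was thus clearly read in every embryo. *GATA4* was read in every embryo but only with 8 to 20 reads, and *SOX7* and *FOXA2* were not read in all. *PDGFRA*, the receptor that marks early hypoblast cells, had 369 in nc2 and 156 to 177 in the others. The endocytic receptor *LRP2* (2648 ± 406) and its adaptor *DAB2* (1774 ± 370) drew many reads, but *CUBN*, the receptor that works with *LRP2*, had 8.95 or less. *LAMA1*, a chain of the basement membrane laminin, was the most uneven of the 11 with a mean of 50 or more, with 58.8, 196, 94.5, 15.5 and 36.6 (CV 0.884), while *LAMC1* (140 ± 32.0) and *COL4A1* (263 ± 39.9), which also build that membrane, were steadier.

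Of the trophectoderm genes, the transcription factors *TFAP2C* (791 ± 79.5), *GATA3* (695 ± 142), *TEAD4* (302 ± 58.6) and *MSX2* (213 ± 44.9) were expressed in every embryo. *CDX2* had 43.5, 32.6, 37.8, 45.8 and 19.5 (mean 35.8 ± 10.5). *ELF5*, *EOMES* and *ASCL2*, which mark trophoblast stem cells in mice, had 10 reads or fewer in every embryo. *IFNT3*, an interferon tau gene, had 42.7 in nc1, 40.0 in nc2, 34.8 in nc3, 171 in nc4 and 407 in nc5 (CV 1.15). It was above 100 in nc4 and nc5 only, and how reads of the near-identical interferon tau copies were shared among them is not stated.

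Of the 18 trophectoderm genes with a mean of 50 or more, 6 were highest in nc5, where 15.3% of all genes were, 4 each in nc1, nc3 and nc4, and none in nc2. Besides *IFNT3*, 5 genes peaked in nc5. *PAG2*, a pregnancy-associated glycoprotein with many paralogs, had 66.4, 53.4, 91.5, 51.3 and 184. *HSD3B1*, a steroid enzyme, had 48.8, 13.3, 29.8, 82.4 and 144, and *PTGS2*, which makes prostaglandin H2, had 1402, 467, 1177, 1852 and 2125. *KRT19* had 398, 463, 250, 884 and 981. For *HSD3B1*, *PTGS2*, *KRT19* and *SSLP1* the order was nc5 first and nc4 second, as for *IFNT3*. *CYP11A1*, which starts steroid synthesis, had 83.9 in nc4, 82.6 in nc5 and 14.8 to 29.8 in the others. The transcription factors did not share this order, since *GATA2* was highest in nc3 (257, against 80.3 to 124) and *GATA3* and *CDX2* were lowest in nc5.

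Of the 18 trophectoderm genes with a mean of 50 or more, 7 had a CV of at least 0.5, namely *IFNT3*, *HSD3B1*, *SSLP1*, *PAG2*, *GATA2*, *KRT19* and *DLX3*. The background for this is that 3.17% of all 6964 genes with such a mean had a CV that high. In the epiblast list 2 of 17 did so, *NANOG* and *KLF17*, and in the hypoblast list 1 of 11, *LAMA1*. The median CV was 0.395 in the trophectoderm list, 0.227 in the epiblast list and 0.231 in the hypoblast list, beside 0.198 over all 6964 genes. A CV depends on the level of a gene, and among genes with means of 50 to 100 the background was 5.22%. The mean of log2(value + 1) over a list was 7.02 ± 0.18 for epiblast, 6.32 ± 0.25 for hypoblast and 6.26 ± 0.41 for trophectoderm, and the last was lowest in nc2 (5.67) and highest in nc5 (6.76). With members of mean 10 or more these means were 7.27, 7.33 and 7.55, so the order of the lists turned. In whole embryos, fewer cells of a lineage and less RNA per cell cannot be told apart.

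**Figure D2:**
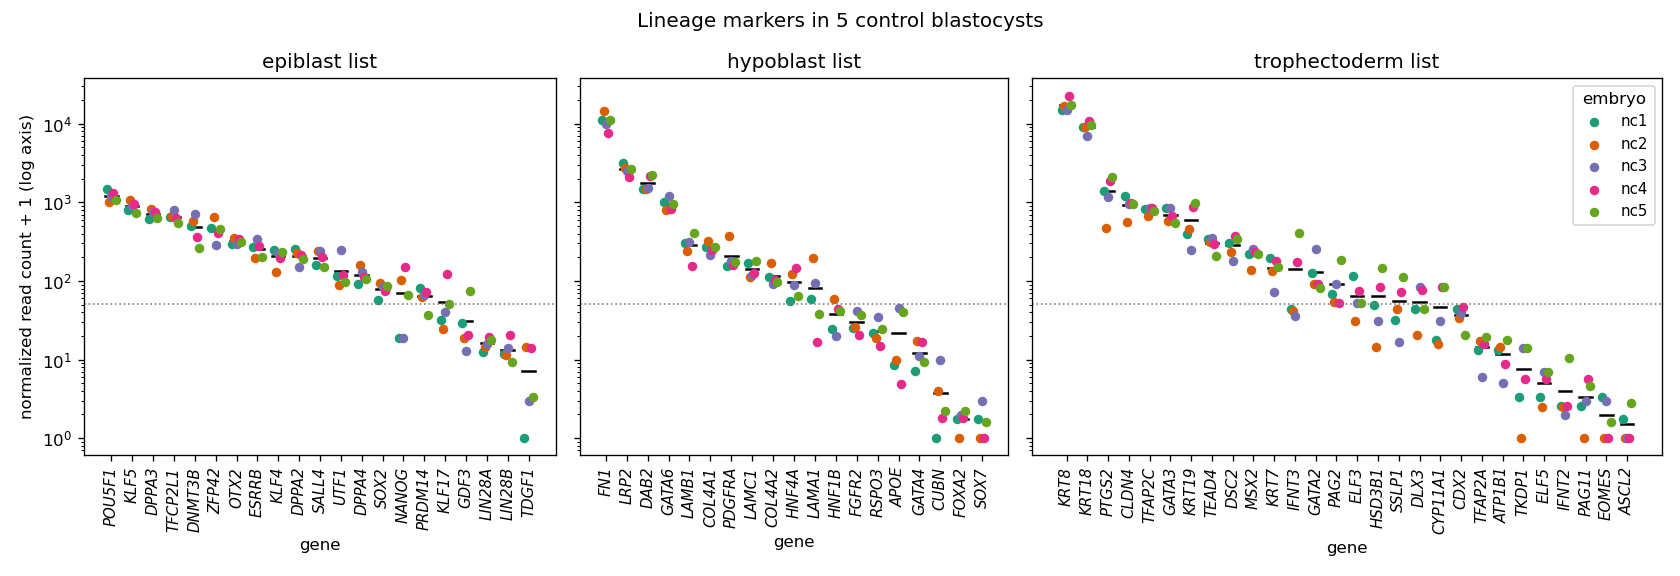
Normalized read count plus 1 on a log axis for the epiblast, hypoblast and trophectoderm lists, with 1 point per control embryo, a bar for the mean and a dotted line at a mean of 50. *NANOG*, *LAMA1*, *IFNT3* and *HSD3B1* are spread widely, while *OTX2* and *TFAP2C* are tight.

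Over the 6964 genes with a mean of 50 or more the median CV was 0.198, and the middle of the range from the 25th to the 75th percentile ran from 0.143 to 0.271. The gene just inside the limit of 50 was *LOC100336208* (50.02) and the one just outside was *FLOT1* (49.97). A CV of at least 0.5 was found for 221 genes (3.17%), a CV of at least 1 for 16, and a CV of at most 0.15 for 1963 (28.2%). The median was 0.232 for means of 50 to 100, 0.190 for 100 to 200, 0.175 for 200 to 500, 0.179 for 500 to 1000 and 0.199 above 1000. The counting CV fell over the same bins from a median of 0.113 to 0.0228, so above a mean of 1000 nearly all of the spread was beyond counting error.

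**Figure D3:**
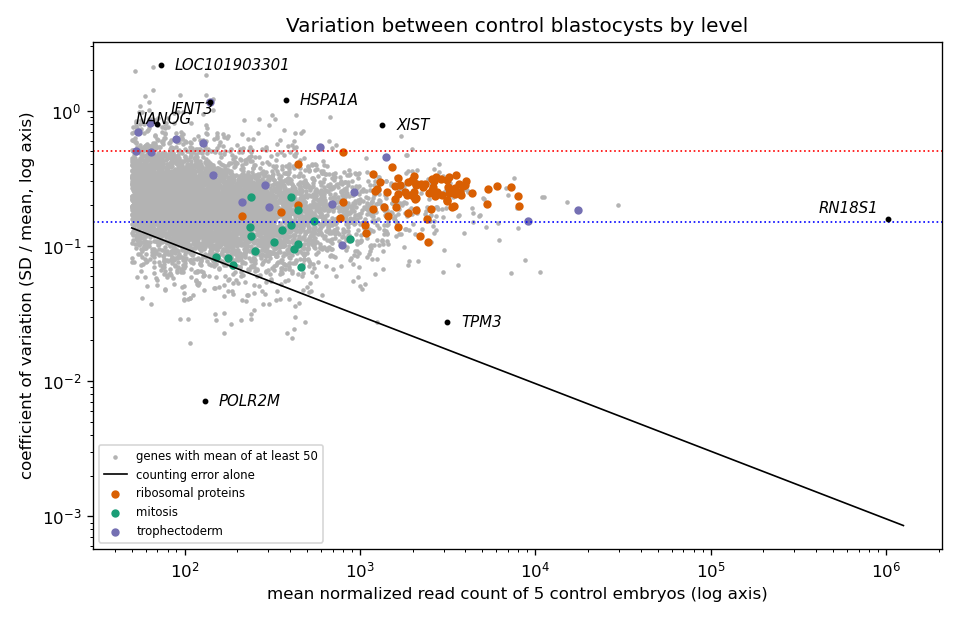
CV against mean normalized read count, both on log axes, for the 6964 genes with a mean of 50 or more, with the CV that counting alone would give as a line and the limits of 0.5 and 0.15 as dotted lines. Ribosomal protein genes lie around a CV of 0.249, mitosis genes around 0.112, and *POLR2M* lies far under the counting line.

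The highest CVs belonged to genes that were nearly silent in some embryos and clearly expressed in 1 or 2 others. *LOC101903301*, a gene without a name, had 3.82, 4.45, 0, 1.55 and 357, so nc5 held nearly all of its reads (604 of 614). *LOC112445068* had 312 in nc3 and 1.48 to 10.6 elsewhere. *LOC783509* had 563 in nc3, 73.0 in nc4 and 0 to 19.5 in the rest. *LOC104975936* had 234 in nc5, 25.9 in nc3 and no read in the others. In all, 8 of the 15 most variable genes had only a locus number, and such names made up 15.8% of the 221 genes with a CV of at least 0.5 beside 3.02% of the 6964.

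*DNAH8*, a dynein heavy chain of cilia and flagella, had 4.58 in nc1, 113 in nc2, 4.97 in nc3, 169 in nc4 and 6.49 in nc5. *LOC514978* had 3.82, 218, 8.95, 91.7 and 6.49 in the same order. Both were thus high in nc2 and nc4 and close to 0 in the other 3 embryos, as were the reads of the oocyte growth factor *BMP15* (0, 53.4, 0, 70.7 and 2.36). *RNASE1*, a secreted ribonuclease, went the other way with 95.4, 5.93, 141, 5.44 and 28.9, and its paralog *BRB* had 1347, 222, 1349, 165 and 311. *MEG3*, an imprinted noncoding RNA, was also low in nc2 and nc4 (1.48 and 0.777) and had 42.0 to 118 in the others. Reads of *RNASE1* and *BRB* may be hard to separate.

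*HSPA1A*, the stress-inducible member of the HSP70 family, had 250, 16.3, 1161, 220 and 238, so nc3 was high and nc2 was low. Most of the wider heat shock list did not share this spread. Of 15 genes, 1 had a CV of at least 0.5 (6.67%, background 3.17%) and 6 at most 0.15 (40.0%, background 28.2%). *DNAJB1*, a cochaperone that is induced with *HSPA1A*, had 136, 97.9, 265, 178 and 203, highest and lowest in the same embryos as *HSPA1A*. Near-identical copies of *HSPA1A* may share its reads.

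A set of genes was highest in nc5. *ACTA2*, smooth muscle actin, had 33.6, 29.7, 37.8, 194 and 437, and *SCIN*, scinderin, which severs actin filaments, had 19.8, 107, 29.8, 196 and 379. *TCEAL9* had 39.7, 0, 93.5, 6.99 and 175, and *BEX2*, also of the X chromosome, 29.8, 8.90, 51.7, 52.8 and 172. *FABP5*, a fatty acid binding protein, had 55.7, 48.9, 82.5, 181 and 291. Of the 16 lipid and sterol genes, 10 were highest in nc5 and 9 lowest in nc3, while over all genes 15.3% were highest in nc5 and 33.5% lowest in nc3. Of the 221 genes with a CV of at least 0.5, 82 were highest in nc5 and 75 in nc3, where 15.3% and 19.7% of all 6964 genes were, and 108 were lowest in nc2, where 20.4% were.

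Among genes with more reads, the most variable were these. In the bin of 200 to 500, beside *HSPA1A*, *LOC107131287* had 40.4, 1072, 458, 148 and 446, and *LOC616039* had 834 in nc5 and 114 to 286 in the others. Between 500 and 1000, beside *BRB*, *SLC2A5*, a fructose transporter, had 1362 in nc1 and 383 to 633 in the others, and *ANXA1*, an annexin, 557, 810, 208, 745 and 1324. At 1000 or more, *FOLR1*, a folate receptor, had 3699 in nc2 and 981 to 1500 in the others, and *LOC112442408* ran from 1021 in nc5 to 3573 in nc3. The embryo that stood out differed from gene to gene.

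*XIST*, the noncoding RNA that coats the inactive X chromosome, had 1819 in nc1, 11.9 in nc2, 2326 in nc3, 429 in nc4 and 2144 in nc5 (mean 1346 ± 1054, CV 0.783). It was the most variable gene with a mean of 1000 or more, and the highest embryo had 196-fold the level of the lowest. The 17 other X-linked genes of a fixed list were then read beside it. Of these, 11 were lowest in nc2, where 20.4% of all 6964 genes were lowest, and none was highest in nc2. The median of their ratios to the median of the other 4 embryos was 0.674 in nc2, against 1.03 for all genes in nc2, and it was 1.10 in nc1, 0.896 in nc3, 1.22 in nc4 and 1.09 in nc5. *USP9X* had 511, 258, 419, 462 and 464, *XIAP* 211, 105, 188, 167 and 192, and *UBA1* 1078, 666, 1020, 959 and 977, so each was lowest in nc2. In nc4, where *XIST* was intermediate, *KDM6A* was lowest with 103 but *DDX3X* was highest with 862. *HPRT1* was nearly level, with 212 to 256 (CV 0.0711). The labels give no sex for the embryos.

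**Figure D4:**
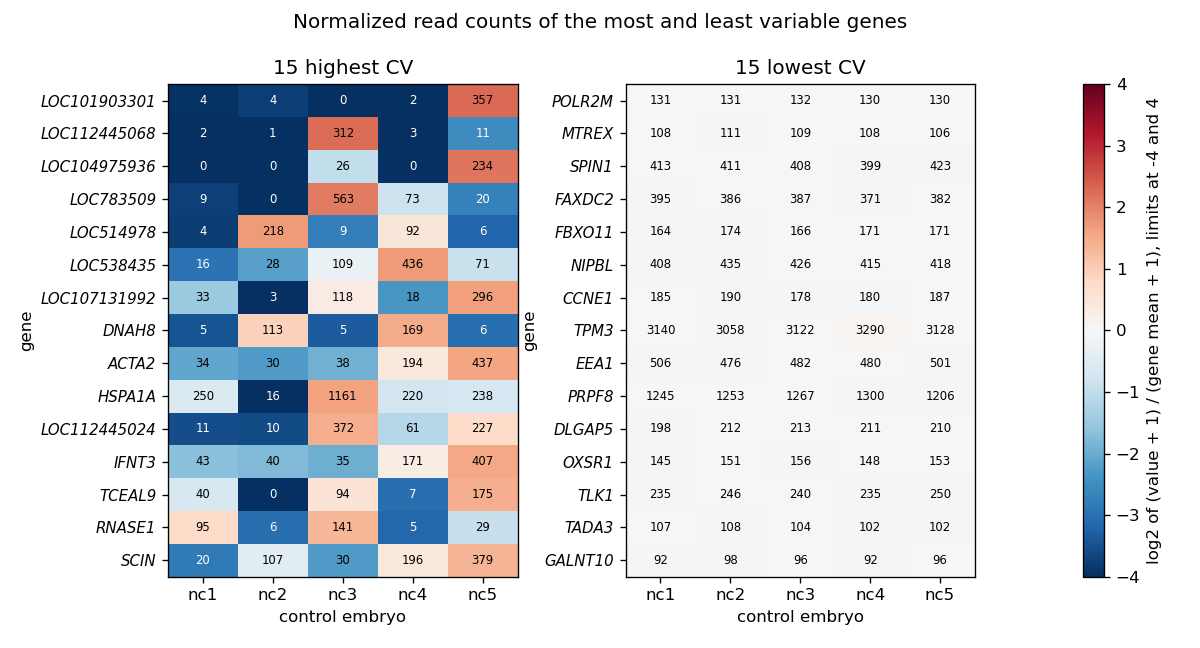
Normalized read counts printed for the 15 genes with the highest CV and the 15 with the lowest, by control embryo, with colour for the log2 ratio to the mean of the gene after adding 1. Of the 15 most variable genes, 7 were highest in nc5 and 5 in nc3, where 15.3% and 19.7% of all 6964 genes were. The least variable ones show nearly no colour.

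The least variable genes differed by a few percent between embryos. *POLR2M*, a subunit tied to RNA polymerase II, had 131, 131, 132, 130 and 130 (CV 0.00708), and *MTREX*, a helicase of the RNA exosome, had 108, 111, 109, 108 and 106. For *POLR2M* counting error alone gives a CV of 0.0840, so its values were closer together than reads of this number would be on average. This held for 13 of the 15 least variable genes, and for 305 of all 6964, so at this depth their order carries little. The exceptions among the 15 were *TPM3*, a tropomyosin with 3058 to 3290 (CV 0.0272, counting CV 0.0171), and *PRPF8*. The latter, the core protein of the spliceosome, had 1206 to 1300, and its CV of 0.0273 was nearly equal to its counting CV of 0.0271.

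*SPIN1*, a reader of histone marks (411 ± 8.63), *NIPBL*, which loads cohesin (420 ± 10.1), *TADA3*, of histone acetyltransferase complexes (105 ± 2.99), and *TLK1*, a kinase of chromatin assembly (241 ± 6.89), were among them. So were *CCNE1*, the cyclin of the entry into S phase (184 ± 4.85), *DLGAP5* of the mitotic spindle (209 ± 5.87), *FBXO11* of a ubiquitin ligase (169 ± 3.86) and *EEA1* of early endosomes (489 ± 13.3). The 15 were completed by *FAXDC2*, *OXSR1* and *GALNT10*. In the bin of 500 to 1000 and, after *TPM3* and *PRPF8*, above 1000, the steadiest genes were *ZFR* (511 ± 23.4), *TIMM10* (612 ± 26.7), *THRAP3* (528 ± 24.5) and *G3BP1* (1029 ± 48.9). None of the 15 stayed among the 15 least variable genes when embryos were scaled to equal totals without *RN18S1* instead of by the deposited factors.

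Genes of mitosis were steadier than most. Of 17 mitosis genes, 13 had a CV of at most 0.15, where 28.2% of all 6964 genes did, and none reached 0.5. The lowest were *TPX2* (463 ± 32.6), *KIF11* (188 ± 13.5), *BUB1* (177 ± 14.4) and *CCNB2* (151 ± 12.5), which build or control the spindle or drive entry into mitosis. *CENPE* (403 ± 93.2) and *BUB1B* (240 ± 55.0), which act at kinetochores, were the least steady. Genes of DNA replication were less even, with 2 of 15 at a CV of at most 0.15, namely *MCM2* (260 ± 17.6) and *RRM1* (369 ± 41.9). Of these 15 genes, 9 were highest in nc2, where 27.4% of all genes were, among them *PCNA* with 374, 672, 346, 556 and 579.

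Ribosomal protein genes moved together from embryo to embryo. Their summed level was 188862 in nc1, 271327 in nc2, 151734 in nc3, 250363 in nc4 and 200247 in nc5, and they held 8.50%, 11.4%, 7.46%, 10.4% and 8.97% of the reads without *RN18S1*. Of 83 such genes with a mean of 50 or more, 68 were highest in nc2 and 77 lowest in nc3, where 27.4% and 33.5% of all genes were. A CV of at most 0.15 was found for 5 of them (6.02%, beside 28.2% of all genes). That count was 18 under equal totals without *RN18S1* and 11 without nc2 or without nc3. None of the 83 reached 0.5, where 3.17% of all genes did, and the median was 0.249. *RPLP0* had 4908, 7028, 3484, 6599 and 5019, and *RPL22L1*, a paralog of *RPL22*, was the least even with 588, 1480, 537, 858 and 557. *RPS4X* and *RPL10* were among the 14 that were highest in nc4 instead, and *RPL39* was the 1 that was lowest in nc2 (2325). With embryos scaled to equal totals without *RN18S1*, whose share was highest in nc3, 69 were highest in nc2 and 61 lowest in nc3, and after thinning to equal reads 69 and 77.

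Nuclear genes of the respiratory chain followed the same embryos. Of 79, 50 were highest in nc2 (27.4% of all genes) and 58 lowest in nc3 (33.5%), and the latter were 39 under equal totals without *RN18S1*. The 4 that were lowest in nc2 included *NDUFA1* and *COX7B*, which are also in the X-linked list. A CV of at most 0.15 was found for 31.6% of the 79, near the 28.2% of all genes. The steadiest were *ATP5ME* (998 ± 50.6), *NDUFA4* (2991 ± 193) and *NDUFA3* (396 ± 27.9), and the widest was *NDUFS3* (526, 798, 313, 545 and 377). All 8 chaperonin genes with a mean of 50 or more were highest in nc2, for example *CCT8* with 1132, 1944, 1178, 1259 and 1430. Of 53 genes of translation factors, 34 were highest in nc2 and 30 lowest in nc3, and of 35 proteasome genes 13 and 26 were, beside the same 27.4% and 33.5% of all genes. Zinc finger genes of the ZNF series, by contrast, had nearly level sums, from 12083 in nc4 to 13587 in nc3, though 193 of 262 had means under 50.

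**Figure D5:**
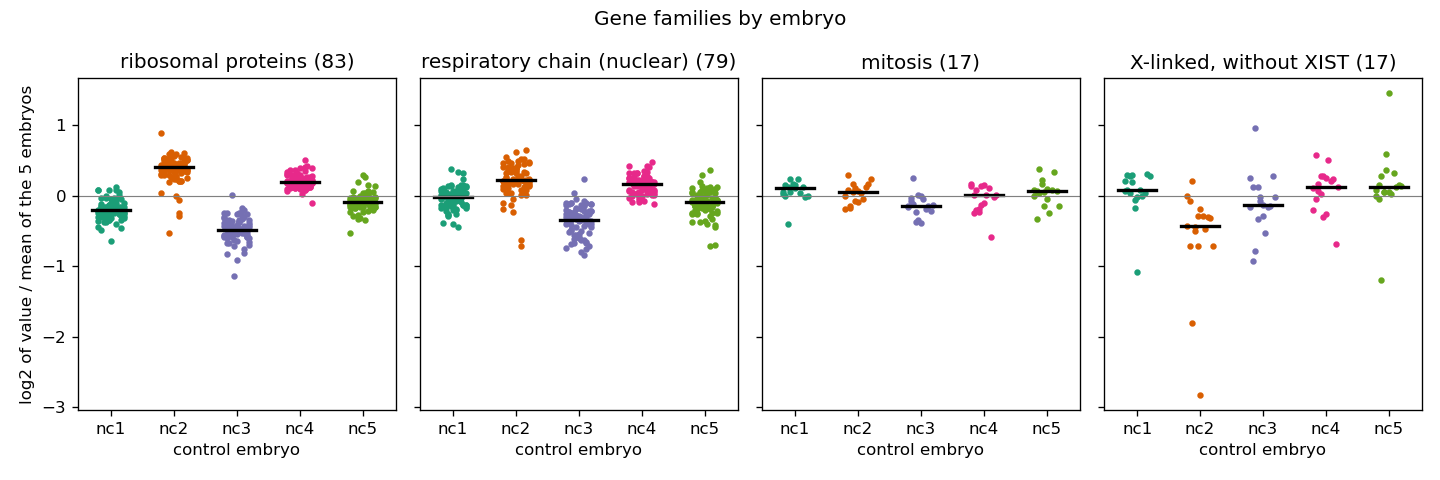
Log2 of the value over the mean of the 5 embryos for genes of 4 families, with 1 point per gene and a bar at the median, by control embryo. Ribosomal protein genes sit highest in nc2 and lowest in nc3, mitosis genes stay near 0, and the 17 X-linked genes are lowest in nc2.

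Genes often used as references for quantitative PCR differed in how level they were. Of 18, 4 (22.2%, beside 28.2% of all genes) had a CV of at most 0.15, namely *HPRT1* (238 ± 16.9), *SUZ12* (320 ± 28.2), *UBE2D2* (297 ± 42.0) and *TBP* (103 ± 15.2). *ACTB* had a CV of 0.199, *GAPDH* 0.258, *H2AFZ* 0.296 and *PPIA* 0.229. The widest were *PGK1*, with 646, 581, 323, 915 and 594 (0.345), and *B2M*, with 371, 283, 618, 319 and 351 (0.341). Of the 18, 14 were lowest in nc3 and 8 highest in nc2, where 33.5% and 27.4% of all genes were.

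Genes of stress and signalling showed no embryo that was high throughout. Of 14 genes of a list of p53 and cell stress genes, 1 had a CV of at least 0.5 (7.14%, beside 3.17% of all 6964 genes). It was *CDKN1A*, the inhibitor of cyclin-dependent kinases, with 61.1, 31.1, 74.6, 106 and 178. *ATF4* and its target *ASNS*, asparagine synthetase, were both lower in nc3 and nc5 than in the rest. *ATF4* had 1213 and 1193 there against 1870 to 2545, and *ASNS* 289 and 270 against 467 to 779. Of other stress genes in the list, *CHAC1* was also lower in both (36.8 and 46.6 against 54.2 to 102), but *TRIB3*, *DDIT3*, *DDIT4* and *SESN2* were not. Of 9 immediate early genes, 8 were lowest in nc2 (background 20.4%), including *FOS* with 118, 63.8, 72.6, 132 and 142 and *JUNB* with 77.8, 28.2, 91.5, 60.6 and 74.4. *IER3*, the most variable of them, had 500 in nc5 and 108 to 262 in the others. Among antioxidant genes 7 of 13 were highest in nc4, where 23.0% of all genes were, and *SOD1* had 383, 452, 501, 869 and 1244 while *TXN*, thioredoxin, had 1247, 1485, 1486, 2606 and 2630. Nc4 and nc5 were thus the high embryos for *SOD1* and *TXN*, as for *IFNT3*, but these were chosen members. Of the 13 antioxidant genes, 3 were highest in nc5 and 9 lowest in nc3, where 15.3% and 33.5% of all genes were.

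Interferon response genes were close to silent although *IFNT3* was read in every embryo. Of 13, 2 had means of at least 50, among them *IRF7* (133 ± 91.6). *MX1* had 0.763, 0, 5.97, 25.6 and 12.4 and *ISG15* had 0.763, 0, 0, 12.4 and 2.95, so the few reads of both lay mainly in nc4 and nc5. *OAS1Y* was read in nc4 alone, at 9.32. *IRF7*, a transcription factor of interferon genes, was highest in nc3 at 280 and lowest in nc2 at 34.1.

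Glycolysis genes and imprinted genes completed the lists. Of 15 glycolysis genes, 7 were highest in nc5 and 8 lowest in nc3, where 15.3% and 33.5% of all genes were, and *GPI* was the steadiest (686 ± 59.2). *ENO1* had 839, 1011, 791, 1375 and 1546. Of 15 imprinted genes 5 had a mean of 50 or more, a share close to the 34.6% of all 20112 genes. Of these 5, *IGF2R* (183 ± 13.0), *GRB10* (87.9 to 107) and *GNAS* (718 ± 107) had a CV of at most 0.15, where 28.2% of all 6964 genes did. *IGF2* and *DLK1*, growth-related imprinted genes that are active later in the conceptus, had 3 reads or fewer in every embryo. The genes of the mitochondrial genome were not analysed here.

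The CVs of the same genes were then read in the 5 SOX2 KO embryos, which the ranking had not used. Of the 221 genes with a CV of at least 0.5 among control embryos, 189 had a mean of 50 or more in the SOX2 KO embryos, and 47 of these (24.9%) had a CV of at least 0.5 there too, where 2.28% of all 6540 genes with such means in both groups did. These 47 were 31.5% of the genes that were that variable among SOX2 KO embryos. Within the bin of means of 50 to 100 the share was 24.8% against 3.13% of all genes, and within 200 to 500 it was 26.7% against 1.78%. Of the 15 most variable genes, 13 had a CV of at least 0.5 among SOX2 KO embryos, such as *LOC104975936* with 2.06 and *IFNT3* with 0.822. The exceptions were *SCIN* (0.219) and *HSPA1A* (0.499). No limit on the mean in the SOX2 KO embryos was set for these 15, so the 2.28% is not their background. At low means counting error alone raises a CV. *NANOG* had 0.805 and *XIST* 0.649.

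Low variation carried over less. Of the genes with a CV of at most 0.15 among control embryos, 38.2% had such a CV among SOX2 KO embryos, where 29.2% of all 6540 genes did. For means of 200 to 500 the shares were 48.8% and 36.2%, and for means of 50 to 100 they were 23.4% and 20.5%. Of the 15 least variable genes, 9 stayed at or under 0.15, among them *FAXDC2* (0.0603), *NIPBL* (0.0749) and *SPIN1* (0.0902). *CCNE1* had 0.478 and *POLR2M* 0.226. Across the 6964 genes the rank correlation of the CVs in both groups was 0.27, as a description over genes that share their level and counting error between the groups. The SOX2 KO embryos are another group, so their CVs are no repeat of the controls.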

How the data were processed

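Single bovine blastocysts were sequenced after Smart-seq2 amplification with oligo-dT priming, PCR and no molecular identifiers. Per the study's methods and the submitters' processing notes, the authors trimmed reads with Trimmomatic, used HISAT2 for alignment to the ARS-UCD1.2 build and featureCounts for the number of reads per gene, and divided these counts by size factors of DESeq2. Strand use and the treatment of reads that fit several genes are not given in the sources used here. The deposited values are of unit signal (reads divided by a size factor). Each column's smallest positive value was taken as 1 read, and 100% of 201120 values were whole multiples of it within 0.01. Size factors recomputed from these reads as the median of ratios matched those in the values (largest ratio 1.0000). Every listed gene had at least 11 reads over the 10 embryos, so rarer genes were not analysed here.

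Computed here (Python 3.11.15, pandas 2.3.3, numpy 2.4.6) were mean, SD and CV over the 5 control embryos, and the counting CV from the recovered reads. No test was run, since there is 1 group and genes were ranked by the measure itself. Samples are single embryos, but nothing states that they came from separate cultures, and intervals of counting error do not cover PCR. Named genes were the 20 with the highest mean, the 15 with the highest and the 15 with the lowest CV at means of 50 or more, the 3 highest and 3 lowest CVs in each of 5 level bins, and members of 26 lists. The members and lists were chosen with earlier results of these data known. A ranking per coding length could not be made. X-linked genes came from a textbook list. RefSeq symbols (ARS-UCD2.0) matched 18083 of 20112 genes. CV recovery was tested on simulated data. Alternatives were scaling to equal totals without *RN18S1*, TMM factors and the biological CV of edgeR 4.0.16, thinning, other limits on the mean, other pseudocounts and leaving out each embryo. Some genes of the lists are not reported here.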

Additional observations from a re-analysis of the deposited data

Results flagged for a closer look

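In 117 groups of 5 values (the named genes of the abundance and variation rankings, the lineage markers, list means and library figures) 18 had an embryo whose gap to the nearest other was over 0.71 of the whole range. For independent groups of normally distributed values, chance alone gives this in about 1 in 20, or 5.9 of 117. Genes ranked by CV were picked for such gaps, and list means overlap with their members. The 18 beside 5.9 is therefore no measure of an excess. Among the abundant genes these were *HSPA8* in nc3 (7503 normalized reads, low) and *CLDN6* in nc1 (9949, high).

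Among the most variable genes, the embryo far above the others was nc5 for *LOC101903301* (357), *LOC104975936* (234) and *LOC616039* (834). It was nc3 for *LOC112445068* (312), *LOC783509* (563) and *HSPA1A* (1161), nc4 for *LOC538435* (436), nc1 for *SLC2A5* (1362) and nc2 for *FOLR1* (3699). Among the least variable, *DLGAP5* was low in nc1 (198).

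Among lineage markers, *KLF17* stood out in nc4 (123), *UTF1* and *GATA2* in nc3 (249 and 257), and *PDGFRA* and *COL4A2* in nc2 (369 and 166), all high, and *MSX2* was low in nc2 (136). In all, 6 such embryos were nc3, 4 nc2, 3 nc1, 3 nc5 and 2 nc4.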

How the results depend on the processing

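No paired analysis was possible because there is 1 group and its results come from no test. Genes with a mean of 50 or more numbered 6901 to 6966 with any 1 embryo left out, the median CV 0.177 to 0.208, the genes with a CV of at least 0.5 172 to 281 and those of at most 0.15 1912 to 2626. With a limit on the mean of 10 the median CV was 0.240 and 1171 genes had a CV of at least 0.5. With a limit of 200 there were 40 such genes (1 trophectoderm, 0 epiblast) and 873 of at most 0.15, since fewer genes were counted. The biological CV of edgeR, which draws each gene towards a trend over all genes, had a median of 0.228, with 36 genes at 0.5 or more (1 trophectoderm, 1 epiblast) and 0 at 0.15 or less (0 mitosis, 0 ribosomal), so the counts of steady genes hold for the plain CV.

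Of the 15 most variable genes, 9 to 11 stayed with 1 embryo left out (9 without nc3 and 9 without nc5), 4 with a limit of 10 and 1 with a limit of 200. Of the 15 least variable, 3 to 9 stayed with 1 embryo left out (9 without nc1, 3 without nc2, 3 without nc3, 6 without nc4 and 5 without nc5), 0 under equal totals without *RN18S1*, 8 with a limit of 200, 4 by the biological CV, 6 after thinning and 0 after subtraction of counting variance, where 303 genes tied at 0. Mitosis genes with a CV of at most 0.15 numbered 11 to 14 with 1 embryo left out, trophectoderm genes of at least 0.5 5 to 9, epiblast genes 2 to 3, and ribosomal genes of at most 0.15 5 to 11 (11 without nc2 and 11 without nc3), or 18 under equal totals. These list counts, and those of families by embryo, were added after seeing the data. Under equal totals, TMM and thinning, 61 to 79 ribosomal genes and 39 to 64 respiratory genes were lowest in nc3, and 11 to 12 X-linked genes lowest in nc2. The other families were not rerun.

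The 20 most abundant genes shared 19 to 20 members with 1 embryo left out and held 36.0% to 38.2% of all reads, or 8.81% without *RN18S1*. Genes with a read were 16724 to 17267 on average. The mean log2 level was 6.96 to 7.08 for epiblast, 6.26 to 6.40 for hypoblast and 6.13 to 6.41 for trophectoderm, and with members of mean 10 or more 7.27, 7.33 and 7.55, so the order of the lists depends on which low members are kept. With a pseudocount of 0.1 or 5 the hypoblast value was 6.06 or 6.68. Of 504 CVs of 252 named genes under the other scalings, 50 moved by more than their leave-one-out error. The ranking per coding length was not run.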
